A study of Mus musculus with 8 samples.

Results

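The melanocyte genes Dct, Tyr, Tyrp1, Mlana, Pmel, Mitf and Slc45a2 were followed in whole skin of newborn FVB mice that differ in pRb and p107. Members were all probe sets whose single gene symbol in the platform annotation is one of these 7 names. There were 12 such probe sets, of 6 of the 12393 genes with a probe set of their own, among the 22626 probe sets tested: 3 for Tyr, 3 for Tyrp1, 2 for Slc45a2, 2 for Mitf and 1 each for Dct and Pmel. Mlana matched no single-symbol probe set and is not analysed here.

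Each of the 8 Affymetrix arrays held pooled skin RNA from 3 animals, and each of the 4 genotypes had 2 arrays. The genotypes were pRb+/+, pRb-/-;p107+/+ (called pRb-deficient below), pRb+/+;p107-/- (p107-deficient) and pRb-/-;p107-/- (double-mutant). In the labels, p107 is not named for pRb+/+, and wild-type p107 is assumed for them. pRb, the product of Rb1, and p107, the product of Rbl1, bind E2F factors and restrain the cell cycle. The labels do not state how the genes were inactivated. From knowledge of the study, pRb was removed by Cre under the Krt14 promoter, which is active in basal keratinocytes, and p107 by a constitutive null allele. Whether pRb was lost in any melanocyte was not measured. All groups share the FVB background, which is albino because its tyrosinase is inactive, so melanocytes of every group lack melanin.

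Melanocytes are pigment cells of neural crest origin that, in newborn mouse skin, lie mainly in the growing hair follicles, beside the cells that form the hair shaft. They make melanin in melanosomes. Tyrosinase (Tyr) carries out the first and limiting step, and its relatives Tyrp1 and Dct act on later intermediates. Pmel forms the fibrils on which melanin is laid down, Slc45a2 is a transporter of the melanosome, and Mitf is the transcription factor that drives these genes. Mitf is also made by mast cells and osteoclasts. In whole skin, fewer melanocytes and less RNA per melanocyte cannot be told apart.

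The starts of these genes are shown because several members had low values on the same arrays. Promoter sequences were matched by symbol to RefSeq (build GRCm38.p6) for 4 of the 7 genes: Tyr, Tyrp1, Dct and Mitf. Each line gives the 250 bases before the start, 5′ to 3′ on the gene's strand. Capitals mark TCATGTG, the core of the M-box that Mitf-type factors bind, or its reverse complement CACATGA. In Mitf they mark TGACGTCA, the cyclic AMP response element, which is its own reverse complement.
Tyr, chr7:87493513-87493762, minus strand: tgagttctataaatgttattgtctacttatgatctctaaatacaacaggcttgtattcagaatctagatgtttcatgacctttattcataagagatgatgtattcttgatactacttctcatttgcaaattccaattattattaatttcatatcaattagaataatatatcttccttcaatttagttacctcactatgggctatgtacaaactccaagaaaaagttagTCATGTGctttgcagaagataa
Tyrp1, chr4:80833963-80834212, plus strand: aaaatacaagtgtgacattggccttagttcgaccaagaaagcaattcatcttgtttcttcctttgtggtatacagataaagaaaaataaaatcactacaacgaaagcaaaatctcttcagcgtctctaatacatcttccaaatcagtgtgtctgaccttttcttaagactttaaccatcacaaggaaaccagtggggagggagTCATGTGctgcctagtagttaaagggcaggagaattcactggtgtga
Dct, chr14:118052247-118052496, minus strand: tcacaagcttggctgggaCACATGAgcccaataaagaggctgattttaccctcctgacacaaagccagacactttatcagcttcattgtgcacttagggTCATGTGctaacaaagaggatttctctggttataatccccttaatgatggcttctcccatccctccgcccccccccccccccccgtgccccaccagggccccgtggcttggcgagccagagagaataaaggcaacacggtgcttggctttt
Mitf, the most downstream of 3 listed starts, chr6:97991533-97991782, plus strand: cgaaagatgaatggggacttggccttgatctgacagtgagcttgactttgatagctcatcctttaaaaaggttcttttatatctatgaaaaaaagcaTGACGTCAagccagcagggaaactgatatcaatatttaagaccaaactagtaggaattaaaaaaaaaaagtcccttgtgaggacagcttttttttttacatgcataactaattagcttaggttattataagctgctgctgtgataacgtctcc
TCATGTG began 22 bases before the start in Tyr, 47 in Tyrp1 and 151 in Dct, and Dct held a second match on the opposite strand that began 232 bases before the start. On either strand, 3.25% of the 32851 listed promoters held this motif in the same 250 bases. The 3 Mitf windows held none, and the one shown had TGACGTCA beginning 153 bases before the start, a motif found in 1.55% of listed promoters. These matches describe the letters only. Which Mitf start each Mitf probe set reports is not known here.

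All values are deposited z-scores: for every probe set the 8 arrays average 0 with an SD of 1. A value is thus counted in that probe set's own SD, and expression levels, fold changes and detection above background cannot be read from it. It is not stated whether log or linear values were standardized. No z-score over 8 arrays can exceed 2.47 in size, and levels cannot be compared between genes. The presence of melanocyte RNA in each group therefore could not be checked. Differences below carry the standard error of a linear model fitted with limma to all probe sets, with p-values adjusted by Benjamini-Hochberg over all of them. The labels do not say whether the 2 arrays of a genotype were separate pools, so p-values measure the spread between arrays.

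Of the genes targeted, Rb1 (1417850_at) read 1.21 and 1.07 in pRb+/+, -0.22 and 0.36 in pRb-deficient, 0.02 and 0.4 in p107-deficient and -1.56 and -1.28 in double-mutant skin. Rbl1 (1424156_at) read 0.08 and 0.21, 1.3 and 1.14, -1.51 and -1.22, and -0.31 and 0.31 in the same order. The second Rbl1 probe set (1425166_at) read 0.58 and 1.03, 1.4 and -0.02, -1.53 and -1.12, and -0.13 and -0.2. Rb1 was lowest and did not overlap the other arrays in double-mutant skin, whereas Rbl1 was lowest in p107-deficient skin. The Rb1 values of pRb-deficient and p107-deficient skin overlapped. From pRb+/+ to pRb-deficient skin Rb1 differed by -1.07 ± 0.27 (SE, limma linear model, adjusted p = 0.266). From pRb+/+ to double-mutant skin it differed by -2.56 ± 0.27 (adjusted p = 0.0391), a call lost under every alternative setting. No Rbl1 difference passed the test. From pRb+/+ to p107-deficient skin the 2 probe sets differed by -1.51 ± 0.25 (SE, limma linear model, adjusted p = 0.103) and -2.13 ± 0.55 (adjusted p = 0.175). From pRb-deficient to double-mutant skin they differed by -1.22 ± 0.25 (adjusted p = 0.126) and -0.85 ± 0.55 (adjusted p = 0.478). From pRb+/+ to double-mutant skin the differences were -0.14 ± 0.25 (adjusted p = 0.789) and -0.97 ± 0.55 (adjusted p = 0.391). The Rbl1 values of the double-mutant arrays lay below those of pRb-deficient skin in both probe sets, and below those of pRb+/+ skin in 1425166_at but not in 1424156_at. Where the probes lie relative to the deleted part is not known here, so these values do not settle the label. Throughout, double-mutant means the arrays labelled so, and every direction that rests on them rests on that label. Poly-A spike-in controls (27 probe sets) also differed between arrays, averaging 0.12 to 0.21 in pRb+/+, 1 to 1.27 in pRb-deficient, -0.48 to -0.44 in p107-deficient and -0.84 on both double-mutant arrays. Beta-actin controls (3 probe sets) averaged -0.86 to 0.3, 1.21 to 1.41, -0.02 to 0.05 and -1.08 to -1 in the same order. Both sets of controls were thus highest in pRb-deficient and lowest in double-mutant skin, where most members were lowest. Gapdh controls (3 probe sets) averaged -1.52 to -1.47 in pRb+/+ and -0.03 to 0.84 on the other arrays, and hybridization controls (18 probe sets) ran from -0.8 to 2.05, with neither lowest in double-mutant skin. The part of these controls in the results below was not tested.

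Melanocyte genes were low on the arrays labelled as lacking both proteins. In 7 of the 12 probe sets, of the 5 genes Tyr, Tyrp1, Dct, Pmel and Slc45a2, both double-mutant arrays lay below the other 6 arrays, which held for 11.4% of all probe sets. Tyr, Tyrp1 and Dct each had a probe set that fell from pRb-deficient to double-mutant skin. Tyr and Dct also fell against pRb+/+ skin. The other Tyr and Tyrp1 probe sets passed in neither comparison, and Tyr 1448821_at differed by 0.09 and 0.92. With moderated variances the limma model called none of these falls. No member passed the test between either single mutant and pRb+/+ skin.

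**Figure D1:**
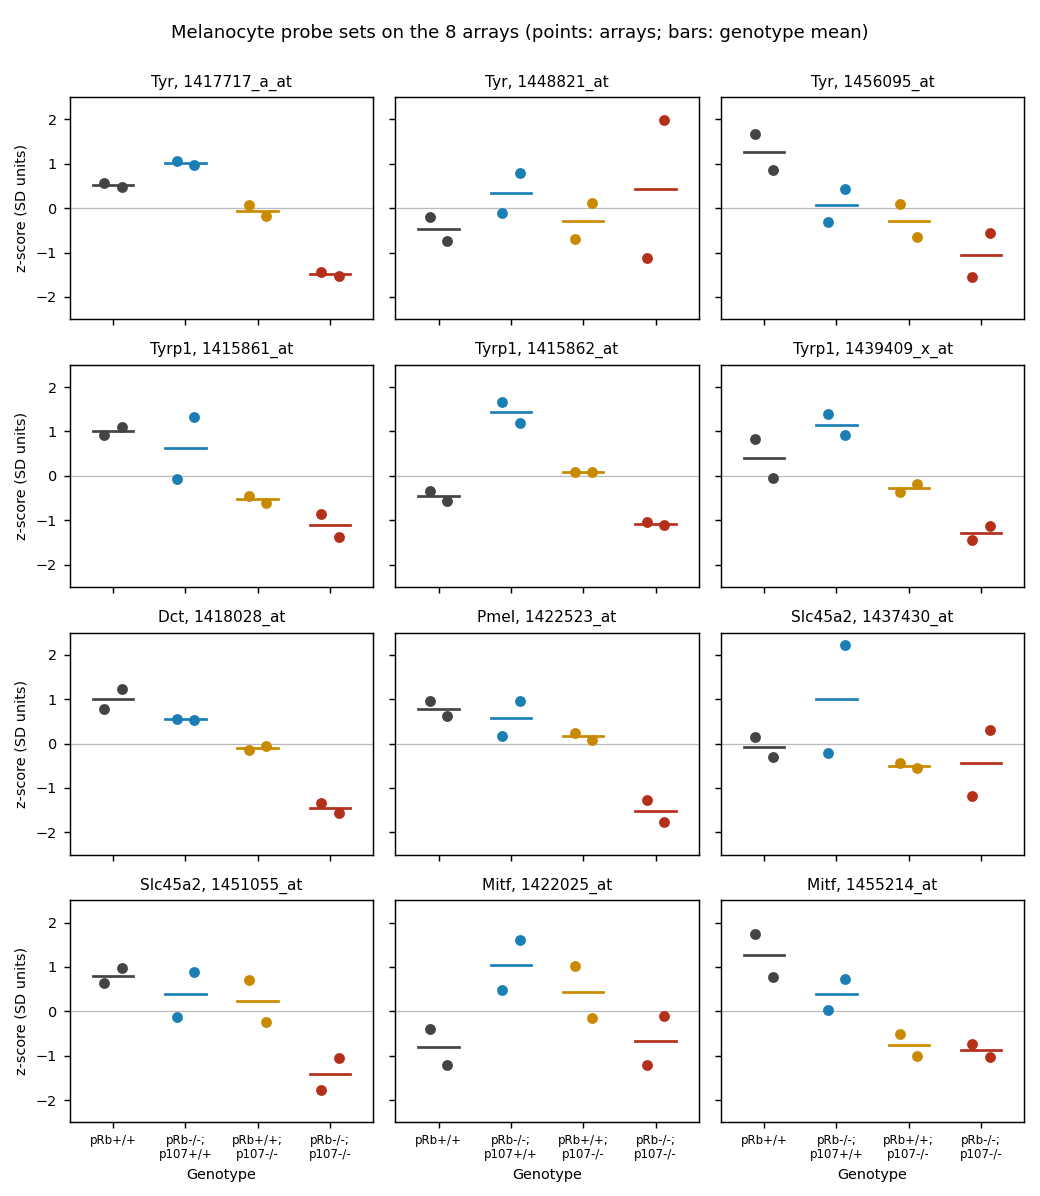
Each panel is 1 of the 12 melanocyte probe sets, with the z-score (SD units) on the vertical axis and genotype on the horizontal axis; points are the 2 arrays of a genotype and short bars their mean. In Tyr 1417717_a_at, all 3 Tyrp1 probe sets, Dct, Pmel and Slc45a2 1451055_at both pRb-/-;p107-/- points lie below all others, while Tyr 1448821_at spans -1.13 to 1.99 in that genotype.

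Tyr, the enzyme of the first step, was read by 3 probe sets that did not behave alike. Tyr 1417717_a_at read 0.56 and 0.47 in pRb+/+, 1.06 and 0.98 in pRb-deficient, 0.06 and -0.17 in p107-deficient and -1.43 and -1.52 in double-mutant skin. Its arrays separated all 4 genotypes without overlap, highest in pRb-deficient and lowest in double-mutant skin. It fell by 2.49 ± 0.1 from pRb-deficient to double-mutant skin (limma linear model, adjusted p = 0.0188) and by 1.99 ± 0.1 from pRb+/+ to double-mutant skin (adjusted p = 0.0149). It also fell by 1.42 ± 0.1 from p107-deficient to double-mutant skin (adjusted p = 0.0495), the only member to pass in that comparison. Without any single array the adjusted p of this last difference was 0.132 to 0.295.

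Tyr 1456095_at read 1.67 and 0.86 in pRb+/+, -0.31 and 0.44 in pRb-deficient, 0.09 and -0.66 in p107-deficient and -1.56 and -0.55 in double-mutant skin. The pRb+/+ arrays were highest without overlap, and the p107-deficient and double-mutant arrays overlapped. Its difference for loss of both was -2.32 ± 0.59 and did not pass (adjusted p = 0.138). Tyr 1448821_at read -0.21 and -0.75, -0.12 and 0.79, -0.69 and 0.11, and -1.13 and 1.99 in the same order of genotypes. The double-mutant duplicates were its lowest and highest arrays, and the mean was 0.43 ± 2.21 (SD, n = 2 arrays). Over the 8 arrays it correlated at -0.18 with Tyr 1417717_a_at and -0.01 with Tyr 1456095_at, as a description of arrays that share genotypes.

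Tyrp1, which acts on a late intermediate of melanin, was lowest on both double-mutant arrays in all 3 probe sets. Tyrp1 1415862_at read -0.33 and -0.56 in pRb+/+, 1.67 and 1.2 in pRb-deficient, 0.08 and 0.09 in p107-deficient and -1.04 and -1.11 in double-mutant skin. It fell by 2.51 ± 0.19 from pRb-deficient to double-mutant skin (limma linear model, adjusted p = 0.0325). Against pRb+/+ skin the double-mutant difference was only -0.63 ± 0.19 and did not pass (adjusted p = 0.167), this probe set being low in pRb+/+ skin as well. Tyrp1 1439409_x_at read 0.84 and -0.04, 1.39 and 0.92, -0.37 and -0.18, and -1.45 and -1.12 in the same order of genotypes. Its difference from pRb-deficient to double-mutant skin was -2.44 ± 0.38 (adjusted p = 0.0846).

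Tyrp1 1415861_at read 0.93 and 1.1 in pRb+/+, -0.06 and 1.32 in pRb-deficient, -0.46 and -0.6 in p107-deficient and -0.85 and -1.37 in double-mutant skin. Here pRb+/+ arrays were high, unlike in Tyrp1 1415862_at, and the pRb-deficient duplicates spanned them. The difference for loss of both was -2.13 ± 0.53 (adjusted p = 0.132) and that for p107 loss in pRb-/- skin -1.74 ± 0.53 (adjusted p = 0.21). The Tyrp1 probe sets thus shared the position of double-mutant skin and differed in the order of the other genotypes.

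Dct, the dopachrome tautomerase and an early melanoblast marker, read 0.79 and 1.22 in pRb+/+, 0.56 and 0.54 in pRb-deficient, -0.14 and -0.05 in p107-deficient and -1.34 and -1.57 in double-mutant skin (1418028_at). The arrays fell in that order of genotypes without overlap. Dct fell by 2.46 ± 0.18 with loss of both (limma linear model, adjusted p = 0.0209) and by 2.01 ± 0.18 from pRb-deficient to double-mutant skin (adjusted p = 0.0404). The step from pRb+/+ to pRb-deficient skin was -0.45 ± 0.18 (adjusted p = 0.404) and that from pRb+/+ to p107-deficient skin -1.1 ± 0.18 (adjusted p = 0.097), and neither passed. From p107-deficient to double-mutant skin Dct differed by -1.36 ± 0.18 (adjusted p = 0.119).

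Pmel, the melanosome fibril protein, read 0.95 and 0.62 in pRb+/+, 0.18 and 0.96 in pRb-deficient, 0.23 and 0.09 in p107-deficient and -1.26 and -1.77 in double-mutant skin (1422523_at). The double-mutant arrays stood apart, and the other genotypes lay close, with pRb-deficient arrays overlapping both neighbours. No Pmel difference passed: it was -2.29 ± 0.35 for loss of both (adjusted p = 0.065) and -2.08 ± 0.35 for p107 loss in pRb-/- skin (adjusted p = 0.0977). Slc45a2 1451055_at, the melanosome transporter, read 0.64 and 0.97, -0.12 and 0.89, 0.71 and -0.25, and -1.78 and -1.05 in the same order. Its double-mutant arrays were also lowest, with a difference of -2.22 ± 0.57 for loss of both (adjusted p = 0.139). Slc45a2 1437430_at read 0.15 and -0.3, -0.21 and 2.21, -0.43 and -0.56, and -1.17 and 0.3, with 1 pRb-deficient array far above the rest and all neighbouring genotypes overlapping. Its differences were -0.36 ± 1.01 for loss of both (adjusted p = 0.871) and -1.44 ± 1.01 for p107 loss in pRb-/- skin (adjusted p = 0.517).

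Mitf, the regulator, gave 2 unlike readings. Mitf 1455214_at read 1.74 and 0.78 in pRb+/+, 0.03 and 0.73 in pRb-deficient, -0.51 and -1 in p107-deficient and -0.73 and -1.03 in double-mutant skin. Both p107-/- genotypes were low and overlapped each other. Its differences were -2.14 ± 0.46 for loss of both (adjusted p = 0.106), -2.01 ± 0.46 for p107 loss with pRb kept (adjusted p = 0.152) and -0.13 ± 0.46 for pRb loss in p107-/- skin (adjusted p = 0.952), the last of which was 0.32 after quantile normalization of the arrays. Mitf 1422025_at read -0.4 and -1.22, 0.49 and 1.6, 1.02 and -0.16, and -1.21 and -0.11 in the same order of genotypes. There pRb+/+ and double-mutant arrays were both low and overlapped, with a difference of 0.15 ± 0.75 (adjusted p = 0.93). The 2 Mitf probe sets correlated at 0.03 over the 8 arrays.

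Of the comparisons of genotype pairs, loss of p107 in pRb-/- skin had the most members past the threshold. There 3 of 12 probe sets fell (Tyr 1417717_a_at, Tyrp1 1415862_at and Dct), against 0.822% of all probe sets called lower, and none rose. In all, 11 of 12 differences were negative, with a median of -1.77 against -0.1 over all probe sets, and 7 were negative at an unadjusted p below 0.05, against 11.4% of all. In 10 of 12, both double-mutant arrays lay below both pRb-deficient arrays, against 28.2% of all. The limma model with moderated variances called none of the 12, nor any other probe set, and leaving out any 1 array also left 0 of the 12, with 0 to 17 calls over all probe sets in place of 310.

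For loss of both proteins 2 of 12 probe sets were called lower, Tyr 1417717_a_at and Dct, against 1.54% of all probe sets. Differences were negative in 10 of 12, with a median of -2.06 against 0.1 over all, and 9 were negative at an unadjusted p below 0.05, against 11.5%. Both double-mutant arrays lay below both pRb+/+ arrays in 9 of 12, against 26.9%. This comparison shares its double-mutant arrays with the previous one. Without either pRb-deficient array the call of Tyr 1417717_a_at remained, and it was lost without any of the other 6 arrays, as was that of Dct without any 1 of the 8. Calls over all probe sets also dropped in these fits, and least without a pRb-deficient array. The moderated test called 0 of the 12 and 0 of all probe sets, in place of 666.

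**Figure D2:**
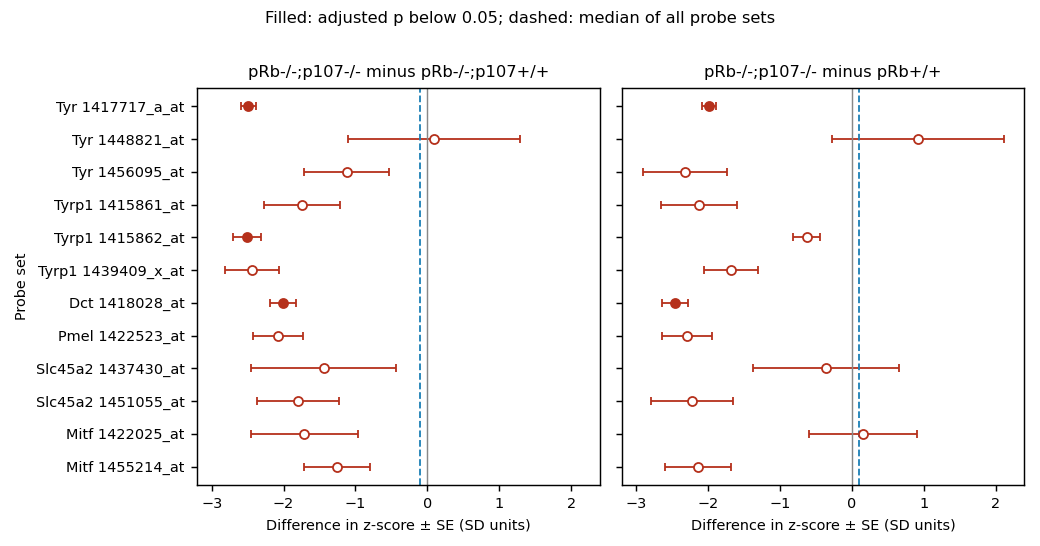
Differences in z-score ± SE (horizontal axis, SD units) of the 12 probe sets, from pRb-deficient to double-mutant skin on the left and from pRb+/+ to double-mutant skin on the right. Filled points passed the threshold of 0.05, and dashed lines mark the medians of all probe sets, -0.1 and 0.1. On the left all probe sets but Tyr 1448821_at lie below 0.

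For loss of pRb in p107-/- skin 1 of 12 was called lower, Tyr 1417717_a_at, against 0.0796% of all probe sets. This call was lost under all 13 alternatives, with adjusted p from 0.114 to 0.445. The median member difference was -1.05 against -0.33 over all, and 5 were negative at an unadjusted p below 0.05, against 7.27%. Loss of p107 with pRb kept called 0 of 12, against 0.42% of all in either direction. At an unadjusted p below 0.05, 4 members were lower (7.69% of all) and 1 was higher (11.7% of all), and the moderated test also called 0. The median was -0.6 against 0.35 over all, and both p107-deficient arrays lay below both pRb+/+ arrays in 8 of 12, against 22.1%.

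Loss of pRb with p107 kept called 0 of 12 members and 0.0% of all probe sets. The median difference was 0.15 against 0.12 over all. At an unadjusted p below 0.05, 2 members were higher (8.24% of all) and none lower: Tyrp1 1415862_at at 1.88 ± 0.19 (limma linear model, adjusted p = 0.113) and Tyr 1417717_a_at at 0.51 ± 0.1 (adjusted p = 0.191). The moderated test called 0.

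Whether the effect of losing one protein depended on the other was tested by the interaction. It called 0 of 12 members and 0.0% of all probe sets, and the moderated test called 0. At an unadjusted p below 0.05, 6 members had a negative interaction, against 8.76% of all. The most negative was that of Tyrp1 1415862_at, at -3.04 ± 0.26 (limma linear model, adjusted p = 0.0883), and that of Tyr 1417717_a_at was -1.93 ± 0.14 (adjusted p = 0.0766). The median was -1.12 against -0.44 over all probe sets. Among all 4 genotypes, the F test called 2 of 12, Tyr 1417717_a_at (adjusted p = 0.0304) and Dct (adjusted p = 0.049), against 1.28% of all.

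The members resembled each other over the 8 arrays in part. Pearson's r had a median of 0.6 over the 58 pairs of probe sets from different member genes (range -0.32 to 0.94), and of 0.45 over the 8 pairs within a gene (-0.18 to 0.84). The median within a gene was the lower one. Against Dct, r was 0.93 for Pmel, 0.92 for Tyr 1417717_a_at, 0.88 for Tyrp1 1415861_at, 0.86 for Slc45a2 1451055_at, 0.78 for Mitf 1455214_at and 0.14 for Mitf 1422025_at. The other probe sets of these genes were less like Dct. Their r was 0.77 for Tyr 1456095_at, -0.32 for Tyr 1448821_at, 0.81 for Tyrp1 1439409_x_at, 0.54 for Tyrp1 1415862_at and 0.29 for Slc45a2 1437430_at. Among the 20379 other single-symbol probe sets, Pmel, the member most like Dct, ranked 240 in likeness to it, and 1.17% were more alike. For Tyr 1448821_at, the member least like Dct, 68.7% were more alike.

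The genes nearest to Dct in pattern were Ccnd2 (r = 0.992), which encodes a D-type cyclin, Mllt11 (0.991), the macrophage receptor gene Csf1r (0.987), Rrbp1 (0.986) and Gm10228 (0.985). Nearest to Pmel were Rgs5 (0.99), a pericyte gene, Basp1 (0.985), the dystrophin gene Dmd (0.981), Pofut2 (0.979) and Cops3 (0.979). For Tyrp1 1415861_at they were Fxr1 (0.988), Cd151 (0.986), Rock1 (0.986), Tpm2 (0.985) and Oxct1 (0.984). None of these is a member, and the 8 arrays share 4 genotypes. The fixed choice of probe set gave Tyr 1448821_at, Slc45a2 1437430_at and Mitf 1422025_at for the other genes, whose best matches were Plscr1 (0.965), Egfr (0.948) and Slc23a2 (0.964).

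Of 57 listed genes, 47 were measured by 77 probe sets. With p107 loss in pRb-/- skin 1 probe set fell and 0 rose, which is 1.3% of the 77 against 1.37% of all probe sets called in either direction. With loss of both 0 fell and 1 rose, again 1.3% against 2.94% of all. These shares are at or below that of all probe sets. The other 4 comparisons called 0. Over 1 probe set per gene, the median difference was -0.24 for p107 loss in pRb-/- skin (-0.1 over all probe sets) and -0.74 for loss of both (0.1 over all).

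Among signals and receptors, 1 of 18 probe sets from 10 genes passed, and for p107 loss in pRb-/- skin 7 genes had a negative and 3 a positive difference. Ednrb, the endothelin receptor that melanoblasts need, read 0.37 and -0.35 in pRb+/+, 1.52 and 1.33 in pRb-deficient, -0.33 and -0.35 in p107-deficient and -1.07 and -1.13 in double-mutant skin (1423594_a_at). It was highest in pRb-deficient and lowest in double-mutant skin, without overlap, as Tyr 1417717_a_at was. It fell by 2.53 ± 0.26 between these (limma linear model, adjusted p = 0.0499), a call lost under every alternative setting and without any 1 array. Its second probe set (1426314_at) differed by -2.3 without passing (adjusted p = 0.168). Outside the naming rule, and chosen after their values were seen, the receptor gene Kit (1415900_a_at) differed by 1 (adjusted p = 0.522) and the melanocortin receptor gene Mc1r by -1.38 (adjusted p = 0.4) in that comparison.

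Of 25 probe sets for 13 transcription factor genes, none passed in any pairwise comparison, and for p107 loss in pRb-/- skin 6 genes had a negative and 7 a positive difference. The lowest p by the F test were those of Zeb2, Tfeb and Sox5. Zeb2, a factor of neural crest cells, differed by -2.36 ± 0.3 for p107 loss in pRb-/- skin (limma linear model, adjusted p = 0.064), Tfeb, a relative of Mitf that drives lysosome genes, by 2.25 ± 0.36 (adjusted p = 0.0889) and Sox5 by -1.94 ± 0.37 (adjusted p = 0.113). Of the other 3 Sox5 probe sets, 1 had the opposite sign for loss of both. Sox10, which activates Mitf in the neural crest and is also made by Schwann cells, differed by 1.71, 0.01 and 0.39 in its 3 probe sets for p107 loss in pRb-/- skin, and Pax3 by -0.32 and 1.96 (adjusted p from 0.256 to 0.995). These 2 genes were added after their values were seen.

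Genes of melanosome assembly and transport held 34 probe sets for 24 genes, of which 1 passed. Rab27a, the small GTPase that tethers melanosomes to actin and serves secretion in many other cells, rose by 2.29 ± 0.28 with loss of both (1425284_a_at, limma linear model, adjusted p = 0.0461), against the direction of the members. It read -1.92 and -1.21 in pRb+/+ skin and 0.15 to 0.72 on the other 6 arrays, so pRb+/+ skin alone stood apart. The call was lost under every alternative setting, and both other probe sets had the same sign. For p107 loss in pRb-/- skin, 13 of the 24 genes had a negative difference and 11 a positive one, over 1 probe set per gene. The 34 probe sets ran from -2.22 for Trpm1 (1437531_at), a cation channel of melanocytes (adjusted p = 0.148), to 2.38 for Rab38 (1417700_at), which sorts melanosome enzymes (adjusted p = 0.0585), both named after their values were seen.

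**Figure D3:**
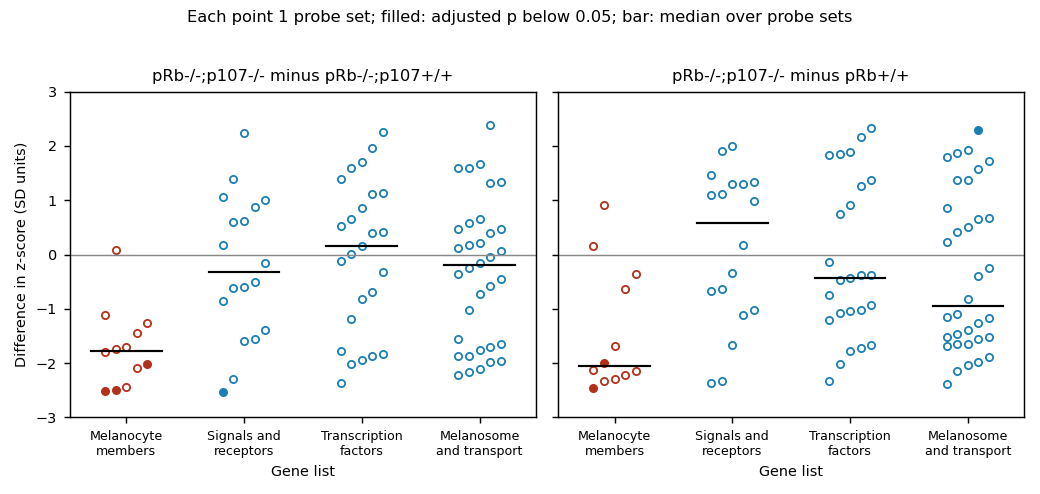
Differences in z-score (vertical axis, SD units) of each probe set of the members and of the wider pigment cell lists, from pRb-deficient to double-mutant skin on the left and from pRb+/+ to double-mutant skin on the right, with bars at the medians over probe sets. Members lie at -2.51 to 0.09 on the left and -2.46 to 0.92 on the right, while each wider list spreads to both sides of 0.

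Markers of the hair shaft, which grows beside the follicle melanocytes, were low on the same arrays. Over 15 of 16 listed genes their mean z-score was 1.2 and 1.08 in pRb+/+, 0.32 and 0.22 in pRb-deficient, -0.53 and -0.57 in p107-deficient and -0.9 and -0.83 in double-mutant skin. With loss of both 12 of 16 hair shaft probe sets fell, and 5 fell with p107 loss in pRb-/- skin (limma linear model), with none higher in either, against 1.54% and 0.822% of all probe sets called lower. For p107 loss in pRb-/- skin all of these calls were lost without any 1 array. For loss of both, all were lost unless the array left out was a pRb-deficient one. Calls over all probe sets also dropped in every fit without 1 array. The moderated test called 0 of these and 0 of all probe sets in both comparisons. The mean of the 12 melanocyte probe sets was 0.61 and 0.26, 0.38 and 1.05, -0.04 and -0.28, and -1.25 and -0.74 in the same order. The hair shaft mean, like that of the other marker lists, takes 1 probe set per gene. With 1 probe set for each of the 6 melanocyte genes the mean was 0.37 and 0.11, 0.14 and 1.24, -0.08 and -0.2, and -1.16 and -0.42. All of these means were lowest on the double-mutant arrays. For p107 loss with pRb kept the calls differed: 7 of 16 hair shaft probe sets fell, against 0.217% of all called lower, and 0 of 12 members were called. The moderated test called 0 of all probe sets in that comparison. Its median difference was -1.78 over hair shaft genes and -0.6 over the member probe sets, against 0.35 over all probe sets. For pRb loss with p107 kept these medians were -0.94, 0.15 and 0.12. The part of hair shaft genes in the melanocyte result was not tested.

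Markers of other cells took mixed courses, and some were also low on the double-mutant arrays. Mast cell markers, of cells that also make Mitf and Kit, averaged -0.73 to -0.41 on the 4 arrays of pRb+/+ and pRb-deficient skin and 0.4 to 0.58 on the 4 p107-/- arrays, over 9 of 9 genes. For p107 loss in pRb-/- skin 4 of their 12 probe sets rose and 1 fell, against 0.548% of all called higher and 0.822% called lower, and none passed by the moderated test or without any 1 array. Fibroblast markers (7 of 7 genes) averaged -0.36 and -1.02 on the double-mutant arrays, below the -0.2 to 0.97 of the other 6, although none of their 12 probe sets passed in any comparison. Keratinocyte markers (7 of 8 genes) averaged 0.05 to 0.7 on the p107-/- arrays and -0.81 to -0.25 on the others. Schwann cell markers (6 of 10 genes) ran from -0.31 to 0.71, and macrophage markers (10 of 10 genes) from -0.49 to 0.32, with overlap between double-mutant and other arrays in both. With loss of both, 4 of 17 Schwann cell and 1 of 14 macrophage probe sets fell and none rose, against 1.54% of all called lower. By the moderated test none passed, and without 1 array none did unless the array left out was a pRb-deficient one. Calls over all probe sets also dropped in these fits, for this comparison and for p107 loss in pRb-/- skin. For p107 loss with pRb kept, 2 of 17 Schwann cell probe sets fell, against 0.217% of all called lower. One of 12 keratinocyte probe sets rose with loss of both, against 1.41% of all called higher. The marker lists share genes with the wider pigment cell lists: Gpnmb (macrophage and melanosome), Foxd3 (Schwann cell and transcription factor) and Lef1 (hair shaft and transcription factor). The part of these cells in the members' values was not tested.

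**Figure D4:**
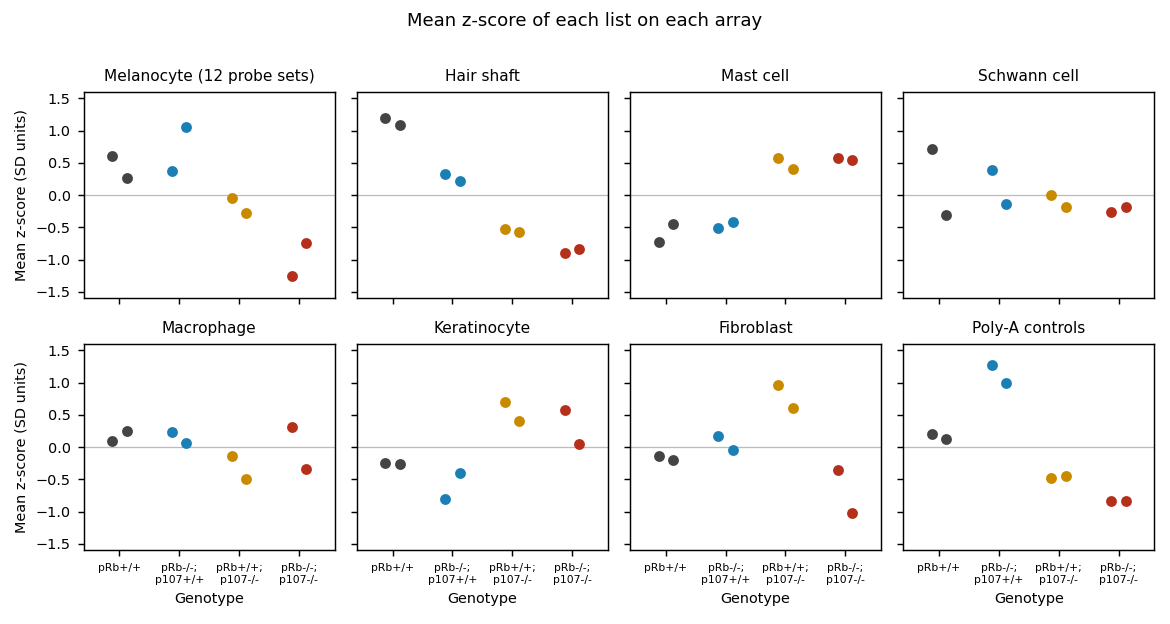
Mean z-score of each list (vertical axis, SD units) on each array by genotype, 1 point per array, for the 12 melanocyte probe sets, for 6 lists of markers of other cells and for the poly-A controls. The 6 marker lists take 1 probe set per gene, unlike the melanocyte list. Melanocyte, hair shaft, fibroblast and poly-A means are lowest on the double-mutant arrays, and mast cell means are high on all 4 p107-/- arrays.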

How the data were processed

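Whole skin RNA was hybridized to 8 Affymetrix arrays, 2 for each of 4 genotypes taken from the sample titles. Per the submitters' processing notes, RMA was used (version not stated). The deposited values are z-scores, a score with mean 0 and SD 1 per probe set over the 8 arrays. No label records that step. Of 22690 probe sets, 64 array controls were left out. Of the rest, 20380 had 1 gene symbol, 691 several and 1555 none, and 20351 of the single ones matched the gene table.

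Genotype means were fitted as a linear model with limma 3.58.1 in R 4.3.3 to all 22626 probe sets (4 residual degrees of freedom). The ordinary test was used, since moderation pools variances that standardization has tied to the differences. P-values were adjusted by Benjamini-Hochberg, with a threshold of 0.05. The fit was tested on simulated scores. A difference depends on each probe set's own SD, and the number of arrays limits precision.

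Members, lists and tests were chosen with earlier results of these data known. Named genes were all members and, of each wider list, genes past the threshold or otherwise the 3 with the smallest F test p, plus the 5 probe sets most like each member. Genes outside this rule are marked. Alternatives were the moderated test, a replicate block, quantile normalization, subtracted array medians, only the compared genotypes, and leaving out each array. Promoters came from RefSeq (GRCm38.p6), without the 50 bases after the start.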

Additional observations from a re-analysis of the deposited data

Results flagged for a closer look

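In Tyr 1417717_a_at both pRb-deficient arrays lay above both pRb+/+ arrays (difference 0.51), while both double-mutant arrays lay below both p107-deficient arrays (-1.42). The interaction did not pass (limma linear model, adjusted p = 0.0766). Tyrp1 1415862_at was likewise higher with pRb loss where p107 was kept (1.88) and lower in p107-/- skin (-1.16). For p107 loss the same probe set was higher with pRb kept (0.53) and lower in pRb-/- skin (-2.51), and its interaction had an adjusted p of 0.0883.

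Tyrp1 1439409_x_at separated without overlap in opposite directions for pRb loss, at 0.76 with p107 kept and -1.01 in p107-/- skin (interaction adjusted p = 0.324). Mitf 1422025_at was at 1.24 for p107 loss with pRb kept and at -1.71 in pRb-/- skin (interaction adjusted p = 0.381). The order of arrays drew attention to these 4 probe sets, and the test of the difference passed in none of them. How many of all probe sets show such an order was not counted, so nothing is read from their number.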

How the results depend on the processing

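The 12 probe sets had 24 differences for p107 loss in pRb-/- skin and for loss of both. Of these, 20 to 24 were negative under every alternative. The moderated test, the replicate block and the fit of only the compared genotypes leave each difference unchanged, so signs could not change there. The same holds without an array of a genotype not compared. After quantile normalization 22 of 24 were negative, and after subtraction of array medians 21. The count of probe sets with every double-mutant array below all others was 7 of 12 with all arrays, against 11.4% of all probe sets. It was 7 to 10 of 12 when 1 array was left out, against 12.6% to 20.7% of all. This alternative was chosen after seeing the data. Leaving out an array cannot lower such a count, so it does not check the 7 of 12. Calls rested on the ordinary test with all 8 arrays. The moderated test and the fit of only the 2 genotypes compared gave 0 calls for p107 loss in pRb-/- skin, for pRb loss in p107-/- skin and for loss of both, and the moderated F test gave 0. Quantile normalization and subtracted array medians gave 3 and 2 calls for p107 loss in pRb-/- skin (171 and 137 of all probe sets). For loss of both they gave 2 and 2 (370 and 606 of all). Both gave 0 for pRb loss in p107-/- skin (77 and 2 of all). By the F test they gave 1 and 0 (150 and 97 of all). Without 1 array the counts were 0 for p107 loss in pRb-/- skin, for pRb loss in p107-/- skin and for the F test, and 0 to 1 for loss of both. Over all probe sets, subtracted medians and quantile normalization moved the median difference for p107 loss with pRb kept from 0.35 to 0.04 and 0.07, for pRb loss with p107 kept from 0.12 to -0.07 and -0.02, for pRb loss in p107-/- skin from -0.33 to -0.05 and -0.07, and for p107 loss in pRb-/- skin from -0.1 to 0.05 and 0.02. The cause of the lost calls was not tested, beyond the fewer arrays of the last 2 kinds of fit.

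With the replicate number as a block, 0 members were called for p107 loss in pRb-/- skin, 0 for pRb loss in p107-/- skin, 1 for loss of both and 0 by the F test. Over all probe sets that fit called 2, 0, 37 and 3 in the same order, in place of 310, 58, 666 and 289. Deviations of same-numbered arrays from their genotype means correlated at -0.131 to 0.105, and 4 of 8 arrays correlated best with their own number, so the numbers were not taken as pairs.

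Signs reversed only in differences that had not passed. After quantile normalization and after subtraction of array medians, Mitf 1455214_at for pRb loss in p107-/- skin was 0.32 and 0.15, Tyr 1448821_at was -0.19 and -0.12 for p107 loss with pRb kept and 0.27 and 0.36 in the interaction, and Tyrp1 1415861_at was 0.17 and 0.27 in the interaction. Mitf 1422025_at for loss of both was -0.011 after quantile normalization. Ranges without 1 array that crossed 0 were, for Tyr 1448821_at, -0.21 to 0.60 for p107 loss with pRb kept, -1.47 to 1.66 in pRb-/- skin, -0.84 to 2.28 for pRb loss in p107-/- skin, -0.64 to 2.48 for loss of both and -1.66 to 1.46 in the interaction. For Slc45a2 1437430_at they were -0.13 to 2.29 for pRb loss with p107 kept, -0.67 to 0.80 in p107-/- skin, -1.09 to 0.37 for loss of both and -2.22 to 0.20 in the interaction. For pRb loss with p107 kept they were -1.08 to 0.30 for Tyrp1 1415861_at, -0.61 to 0.18 for Pmel and -0.93 to 0.083 for Slc45a2 1451055_at. The interaction ranged from -0.073 to 0.94 for Tyr 1456095_at and from -0.88 to 0.49 for Tyrp1 1415861_at. Mitf ranged from -0.40 to 0.70 for loss of both (1422025_at) and from -0.37 to 0.11 for pRb loss in p107-/- skin (1455214_at).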
